A study of Rattus norvegicus with 18 samples.

Results

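A set of 8 Sox transcription factors of the neural and glial lineages was followed in oligodendrocyte-lineage cells of the young rat brain: Sox2, Sox4, Sox5, Sox6, Sox8, Sox9, Sox10 and Sox11. Their probe sets were taken by name, as every probe set whose platform annotation gave exactly 1 gene symbol and that symbol was one of the 8. This gave 16 probe sets for 6 of the 8 genes, 8 on each of 2 array types, out of 31142 non-control probe sets. Sox4 had 7 probe sets, Sox2 had 4, Sox6 had 2, and Sox9, Sox10 and Sox11 had 1 each. No probe set was named for Sox5 or Sox8.

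The study sorted cells by flow cytometry straight from whole-brain dissociates of 7-day-old (postnatal day 7) male rats, with no culture step named. The 2 populations were A2B5+ cells (5 biological replicates) and O4+ cells (4 biological replicates), which the labels call single A2B5+ and single O4+ cells. A2B5 is a ganglioside antigen carried by glial progenitors and also by some neurons, and O4 is a sulfatide antigen that appears on later oligodendrocyte progenitors and stays on oligodendrocytes. Each replicate pooled 1 litter of 10 pups, and its total RNA was labelled with biotin and read on both array types, here called array A and array B, giving 18 arrays. No strain, genotype or treatment was named, and the sources used here do not say whether A2B5+ and O4+ replicates shared litters.

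Sox proteins bind a short A/T-rich DNA motif through a high mobility group box and act mostly together with partner factors. In the oligodendrocyte lineage the SoxE proteins Sox8, Sox9 and Sox10 are known for specification of progenitors and, in the case of Sox10, for direct activation of myelin genes. The SoxD proteins Sox5 and Sox6 lack a transactivation domain and are known to hold progenitors back from differentiation, the SoxC proteins Sox4 and Sox11 are known from immature neurons and progenitors, and Sox2 maintains neural stem cells.

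The deposited values were ratios on a linear scale. For most probe sets (12995 of the 15923 of array A, 11050 of the 15333 of array B) the median of the 9 ratios was exactly 1, so a ratio gives a level relative to the other arrays for the same probe set, and levels of different probe sets cannot be ranked. Probe sets whose median ratio was under 1 moved little from array to array: after their shared pattern was removed, the median standard deviation (SD) over the 9 arrays was 0.066 log2 units (array A) or 0.06 (array B), while the others had 0.40 and 0.35. The comparison of O4+ with A2B5+ arrays was therefore tested for probe sets that reached a ratio of 1 on 4 or more of the 9 arrays, which kept 13 of the 16 Sox probe sets, all with a median ratio of 1. Differences below are log2 differences, O4+ minus A2B5+, with a standard error (SE) and a Benjamini-Hochberg adjusted p over all tested probe sets of the array type, from limma. A probe set is called when that adjusted p is under 0.05.

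On array A the 4 O4+ arrays stood above the A2B5+ arrays as a whole, by 0.17 log2 units between the array medians, and on array B by 0.00235. Of all tested probe sets on array A, 68.8% of the calls were higher in O4+ cells with the ratios as deposited and 51.0% after each array was centred on its median, so centred values are given beside the array A results. Of 20 probe sets for mature oligodendrocyte markers 18 were tested and called higher in O4+ cells. Among them, 1 probe set each of Cldn11 and Opalin passed the filter on the O4+ arrays only and so had to differ. This leaves 16 of 16. The oligodendrocyte progenitor markers split, with 6 of 12 tested probe sets higher in O4+ cells and 5 lower (5 and 5 with arrays centred). Higher were Tnr by 4.26, Vcan by up to 2.87 and Olig1 by 1.50 log2 units. Lower were Pdgfra by -2.29 and also Ptprz1, Cspg4 and Cspg5. Neuron and neuroblast markers gave 10 of 19 lower and 3 higher, the latter from Elavl3 and Gad2. With arrays centred 10 were lower and 2 higher, and Gad2 was no longer called (limma, adjusted p = 0.216). None of the probe sets for astrocytes (19 tested), endothelial cells (15), microglia (11), ependymal cells (6) or dividing cells (10) was called higher. In limma's test 9, 8, 9, 4 and 10 of them were lower in O4+ cells (10, 8, 9, 4 and 10 with arrays centred).

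Sox10 and Sox6 were higher in O4+ cells, Sox11 was lower, Sox2 was called higher by 1 of its probe sets, and Sox4 was not called. Sox10 was 25.6-fold higher, by far the widest difference among the Sox probe sets. Sox6 was 3.76-fold higher by its array B probe set and 1.89-fold higher by its array A probe set, and Sox11 was 2.5-fold lower. Of the 3 tested Sox2 probe sets, 1 was 1.83-fold higher, and none of the 6 tested Sox4 probe sets was called. On array A 3 of 6 tested Sox probe sets were called, 2 higher and 1 lower, where 47.2% of all tested probe sets were called, 32.5% higher and 14.7% lower. With arrays centred 2 of the 6 stayed called, 1 higher and 1 lower, where 36.5% of all tested probe sets were called, 18.6% higher and 17.9% lower. On array B 2 of 7 were called, both higher, against 23.7% of all tested probe sets, 9.93% higher and 13.8% lower. Both shares were near the background, and neither sets the Sox genes apart from the rest of the arrays.

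**Figure D1:**
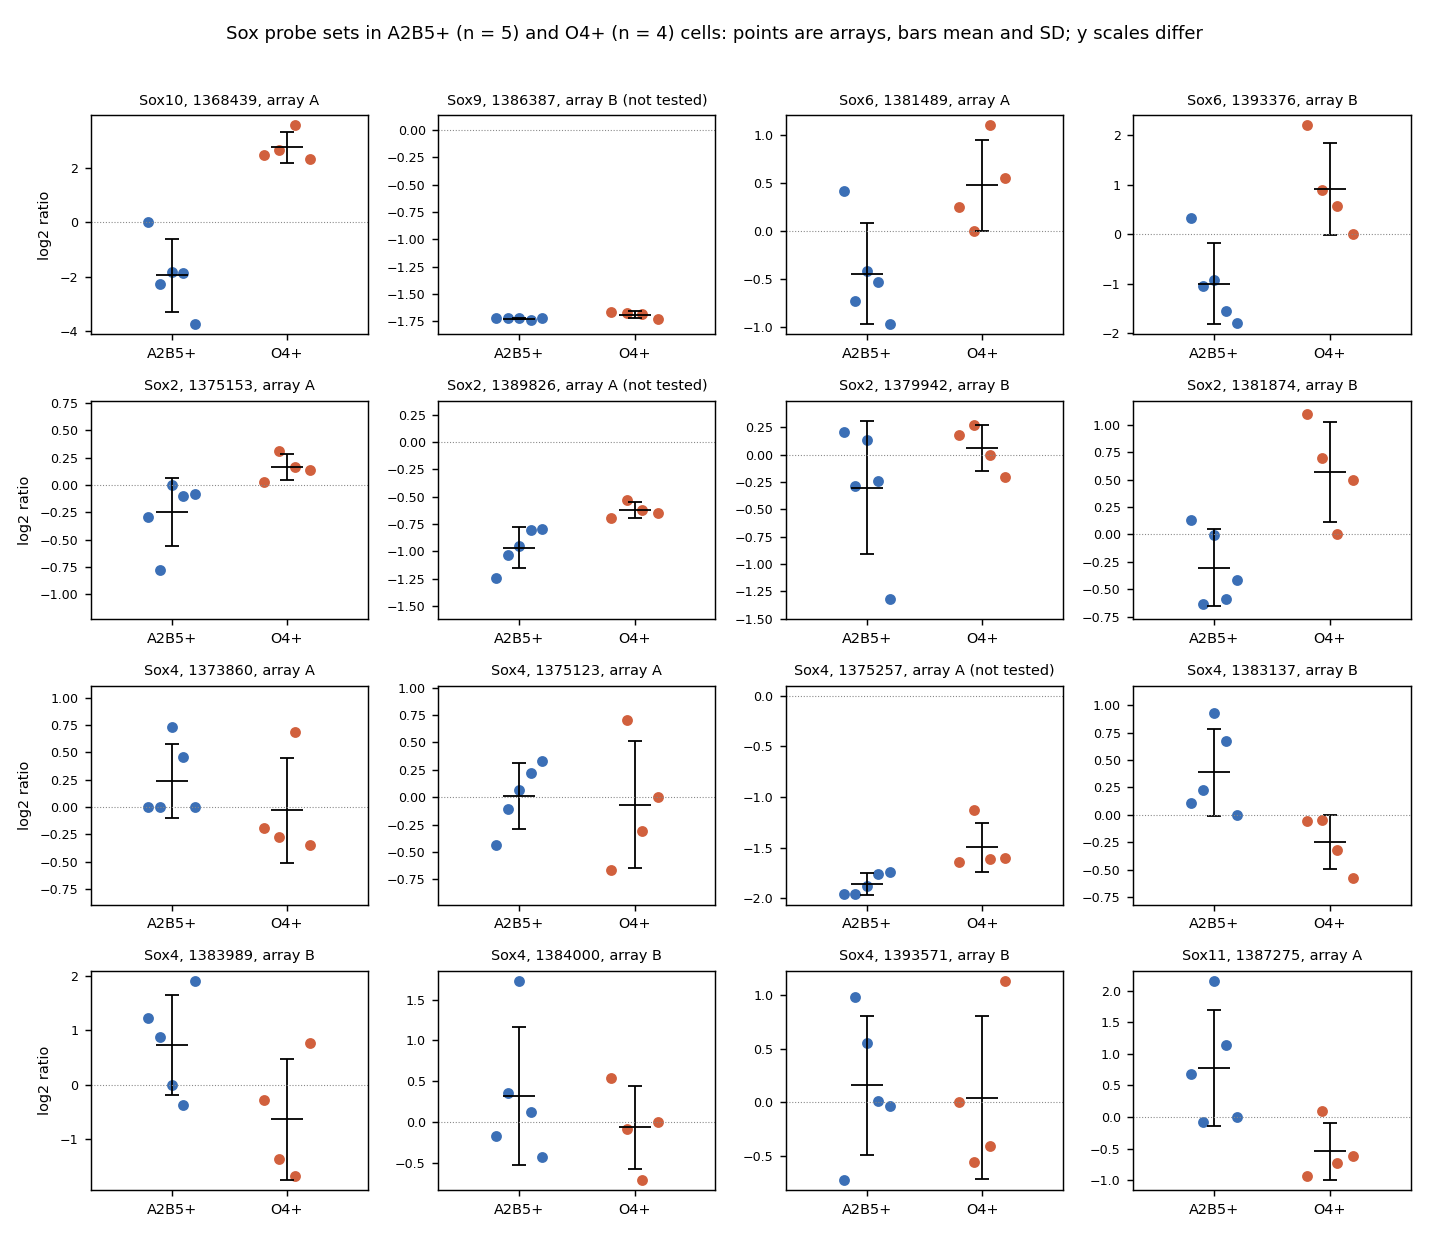
Log2 ratio of every Sox probe set on each array, for A2B5+ replicates 1 to 5 and O4+ replicates 1 to 4. Each point is 1 array, bars give the mean and SD, and the y scales differ between panels. The Sox10 points of the 4 O4+ arrays lie between ratios of 4.97 and 11.7 and all 5 A2B5+ points lie at 1.00 or below, whereas the Sox9 points lie between 0.300 and 0.315 on all 9 arrays.

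Sox10, the SoxE factor that activates myelin genes, was measured by 1 probe set (1368439_at, array A). Its ratio was 1.00, 0.206, 0.283, 0.274 and 0.0743 in A2B5+ replicates 1 to 5. In O4+ replicates 1 to 4 it was 5.44, 6.24, 11.7 and 4.97. The groups did not overlap, and A2B5+ replicate 1 stood highest and replicate 5 lowest within its own population. Mean log2 ratios were -1.94 ± 1.34 (SD, n = 5) for A2B5+ and 2.74 ± 0.56 (SD, n = 4) for O4+ cells. The difference was 4.68 ± 0.60 (SE; limma, adjusted p = 0.0002), a 25.6-fold difference with a 95% interval of 10.2 to 64.5. It ranked 27 of 13098 tested probe sets from the top, and with arrays centred it was 4.51 ± 0.63 (limma, adjusted p = 0.000487). Leaving out any 1 array gave 4.23 to 5.17, and the call held in each of the 9 cases. In sorted bulk RNA, fewer cells that express a gene and less of its RNA per cell cannot be told apart, here and for every gene below.

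The spread of Sox10 among A2B5+ arrays followed the mean of the progenitor marker list. With arrays centred, the mean log2 ratio of the oligodendrocyte progenitor markers on array A was 0.44, -0.44, 0.26, 0.20 and -1.29 in A2B5+ replicates 1 to 5, and 0.16 to 0.51 in O4+ cells. These means join markers that differed in both directions between the populations. The order of the A2B5+ arrays from high to low was replicate 1, 3, 4, 2 and 5 for these means, for Sox10 and for the array A probe set of Sox6. Single markers differed in this. With arrays centred Olig1 and Tnr had the same order, whereas Pdgfra and Cspg4 were highest in A2B5+ replicate 4, at ratios of 5.879 and 2.125. Among O4+ arrays replicate 3 was highest for the marker means and for Sox10, and the order of the others differed. The mature oligodendrocyte markers lay between -1.09 and -0.49 in A2B5+ and between 3.49 and 4.26 in O4+ arrays. The part of either marker list in the Sox10 difference was not tested.

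The probe sets nearest to Sox10 over the 9 arrays, by root mean square distance between profiles centred on their own mean, were those of Bmp4 (0.272 log2 units), Tnr (0.408) and Pnlip (0.528), among 10604 candidates with 1 symbol. Bmp4, a bone morphogenetic protein ligand, had ratios of 1.00, 0.231, 0.359, 0.519 and 0.102 in A2B5+ replicates 1 to 5 and 6.27, 6.99, 11.7 and 5.25 in O4+ replicates 1 to 4. Tnr, itself one of the progenitor markers, encodes the matrix protein tenascin-R, and Pnlip encodes pancreatic lipase. Bmp4 shared with Sox10 the highest and lowest array of each population.

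Sox6, the SoxD factor, was higher in O4+ cells by both of its probe sets. On array A (1381489_at) its ratio was 1.34, 0.603, 0.749, 0.695 and 0.512 in A2B5+ replicates 1 to 5 and 1.19, 1.00, 2.14 and 1.47 in O4+ replicates 1 to 4. The groups overlapped through A2B5+ replicate 1, which lay above O4+ replicates 1 and 2. The difference was 0.92 ± 0.30 (SE; limma, adjusted p = 0.0287), or 1.89-fold with a 95% interval of 1.2 to 2.98. With arrays centred it was 0.75 ± 0.31 and was no longer called (limma, adjusted p = 0.0846). With quantile normalization between arrays it was 0.72 ± 0.32 and was not called either (limma, adjusted p = 0.108). The call was also lost without A2B5+ replicate 2, 4 or 5 or O4+ replicate 3 or 4 (limma, adjusted p of 0.0512 to 0.078).

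On array B (1393376_at) Sox6 ratios were 1.26, 0.485, 0.527, 0.341 and 0.290 in A2B5+ replicates 1 to 5 and 4.58, 1.85, 1.495 and 1.00 in O4+ replicates 1 to 4. Here too A2B5+ replicate 1 was the only overlap, lying above O4+ replicate 4. The difference was 1.91 ± 0.52 (SE; limma, adjusted p = 0.0289), or 3.76-fold with a 95% interval of 1.65 to 8.55, and it was 1.91 with arrays centred (limma, adjusted p = 0.0281). The call was lost without A2B5+ replicate 2, 3, 4 or 5 or O4+ replicate 1, 2 or 3 (limma, adjusted p of 0.0546 to 0.0655). The highest O4+ array was replicate 3 for the array A probe set and replicate 1 for the array B probe set. On array B only 1 probe set of the progenitor marker list was tested, that of Lhfpl3, and it was not called (limma, adjusted p = 0.0818). Its centred log2 ratio was 1.00 in O4+ replicate 1 and 0.01 to 0.38 in the other O4+ arrays, and its part in the Sox6 difference was not tested.

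The nearest profiles to Sox6 were those of Zdhhc2 (0.164 log2 units), Tpm1 (0.189) and Gbf1 (0.19) on array A, and Efs (0.381), Nav2 (0.385) and Plppr2 (0.405) on array B. Zdhhc2 is a palmitoyltransferase, Tpm1 a tropomyosin and Gbf1 a guanine nucleotide exchange factor of the Golgi. The array B profile of Sox6 was further from its nearest neighbours than the array A profile was. Nkx2-2, a homeodomain partner of Sox10 in oligodendrocyte differentiation, had the same order of the 4 O4+ arrays as Sox6 on array B. Its ratios were 4.61, 3.03, 2.10 and 1.00 in replicates 1 to 4. Efs, Nav2, Plppr2 and Lhfpl3 had this order too, and its share among all array B probe sets was not counted.

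RefSeq promoter sequence (rat build GRCr8, the 250 bases before the gene start) was matched for 3 of the 8 Sox genes. The promoters of Sox6 (higher), Sox11 (lower) and Sox2 (called higher by 1 of 3 tested probe sets) are shown to set their sequence beside their expression. They lie at chr1:179665372-179665621 on the minus strand for Sox6, chr6:49738795-49739044 on the minus strand for Sox11 and chr2:119464881-119465130 on the plus strand for Sox2. All are written 5′ to 3′ on the gene's strand, and capitals mark matches on either strand to the Sox-type motifs ACAAAG and ACAATG.
Sox6: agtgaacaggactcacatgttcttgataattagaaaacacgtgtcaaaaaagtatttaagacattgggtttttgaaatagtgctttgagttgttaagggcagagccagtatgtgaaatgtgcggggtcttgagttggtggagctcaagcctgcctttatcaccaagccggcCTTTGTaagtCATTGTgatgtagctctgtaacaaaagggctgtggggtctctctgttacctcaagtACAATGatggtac
Sox11: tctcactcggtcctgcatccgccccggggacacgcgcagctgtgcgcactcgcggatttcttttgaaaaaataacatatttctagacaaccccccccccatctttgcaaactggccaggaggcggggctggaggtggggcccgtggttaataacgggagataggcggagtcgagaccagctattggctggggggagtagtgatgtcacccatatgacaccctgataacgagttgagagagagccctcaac
Sox2: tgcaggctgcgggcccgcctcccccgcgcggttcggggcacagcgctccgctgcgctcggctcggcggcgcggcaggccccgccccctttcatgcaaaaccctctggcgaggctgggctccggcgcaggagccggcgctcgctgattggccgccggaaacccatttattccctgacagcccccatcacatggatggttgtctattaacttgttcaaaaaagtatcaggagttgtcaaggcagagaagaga

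The Sox6 window held 3 matches, 1 of ACAAAG and 2 of ACAATG, and the Sox11 and Sox2 windows held 0. The Sox6 matches began 79, 69 and 13 bases before the start, the first pair on the opposite strand. Of 33469 promoter windows of this length, 16.3% held ACAAAG, 11.1% held ACAATG and 25.3% held either. A match is a run of letters and not a bound site.

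Sox2, the SoxB1 stem cell factor, was read by 4 probe sets, of which 3 were tested and 1 was called. The called one (1381874_at, array B) had ratios of 1.10, 0.645, 0.997, 0.664 and 0.748 in A2B5+ replicates 1 to 5 and 2.14, 1.62, 1.00 and 1.41 in O4+ replicates 1 to 4. The groups overlapped only through A2B5+ replicate 1 and O4+ replicate 3. The difference was 0.87 ± 0.25 (SE; limma, adjusted p = 0.0323), 1.83-fold with a 95% interval of 1.25 to 2.7. The call was lost with array weights (limma, adjusted p = 0.0632) and without A2B5+ replicate 2, 4 or 5 or O4+ replicate 1, 2 or 4 (limma, adjusted p of 0.0544 to 0.0809).

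The other tested Sox2 probe sets were not called. On array A (1375153_at) ratios were 0.818, 0.585, 1.00, 0.933 and 0.942 in A2B5+ replicates and 1.02, 1.24, 1.12 and 1.10 in O4+ replicates. The groups did not overlap, but the difference of 0.41 ± 0.17 missed the threshold (limma, adjusted p = 0.0693) and was 0.24 with arrays centred (limma, adjusted p = 0.234). On array B (1379942_at) the ratio was 0.40 in A2B5+ replicate 5 and 0.819 to 1.20 on the other arrays, with a difference of 0.36 ± 0.29 and a 95% interval of -0.30 to 1.03 (limma, adjusted p = 0.379). The remaining Sox2 probe set (1389826_at, array A) was not tested: its ratios ran from 0.422 to 0.693, and its SD after removal of the shared pattern of such probe sets was 0.0642. The nearest profiles to the called Sox2 probe set were Zfp358 (0.179 log2 units), Arsa (0.191) and Bcl7a (0.194).

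Sox9, the SoxE factor of neural stem cells and astrocytes, was read by 1 probe set (1386387_at, array B) that did not pass the filter. Its ratios lay between 0.300 and 0.304 in A2B5+ cells and between 0.301 and 0.315 in O4+ cells, and its SD after removal of the shared pattern was 0.0348. This probe set varied little over the 9 arrays, and no statement about Sox9 can be made from it. The Sox10 result therefore has no second SoxE gene measured beside it.

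Sox11, a SoxC factor of immature neurons, was lower in O4+ cells. Its probe set (1387275_at, array A) had ratios of 1.603, 0.944, 4.45, 2.21 and 1.00 in A2B5+ replicates 1 to 5 and 0.525, 1.07, 0.602 and 0.651 in O4+ replicates 1 to 4. O4+ replicate 2 lay within the A2B5+ range and the other O4+ arrays below it. The difference was -1.32 ± 0.43 (SE; limma, adjusted p = 0.029), or 2.5-fold lower, and -1.49 ± 0.44 with arrays centred (limma, adjusted p = 0.0233). The call was lost without A2B5+ replicate 1 or 4 or O4+ replicate 1, 3 or 4 (limma, adjusted p of 0.0504 to 0.0709).

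Neuron and neuroblast markers, and those of astrocytes and radial glia, moved with Sox11. For the neuronal list the mean centred log2 ratio on array A was 0.78, 0.50, 1.66, 1.17 and -0.46 in A2B5+ replicates 1 to 5 and -1.06 to -0.60 in O4+ arrays. For the astrocyte and radial glia list it was 0.47, 0.35, 0.84, 0.60 and -0.02 in A2B5+ replicates 1 to 5 and -0.83 to -0.28 in O4+ arrays. With arrays centred, the order of the A2B5+ arrays from high to low was 3, 4, 1, 2 and 5 for Sox11 and for both lists. The part of either list in the Sox11 difference was not tested. The nearest profiles to Sox11 were those of Tlcd1 (0.283 log2 units), Kcnd2 (0.323), a potassium channel subunit, and Alpl (0.324), tissue-nonspecific alkaline phosphatase.

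**Figure D2:**
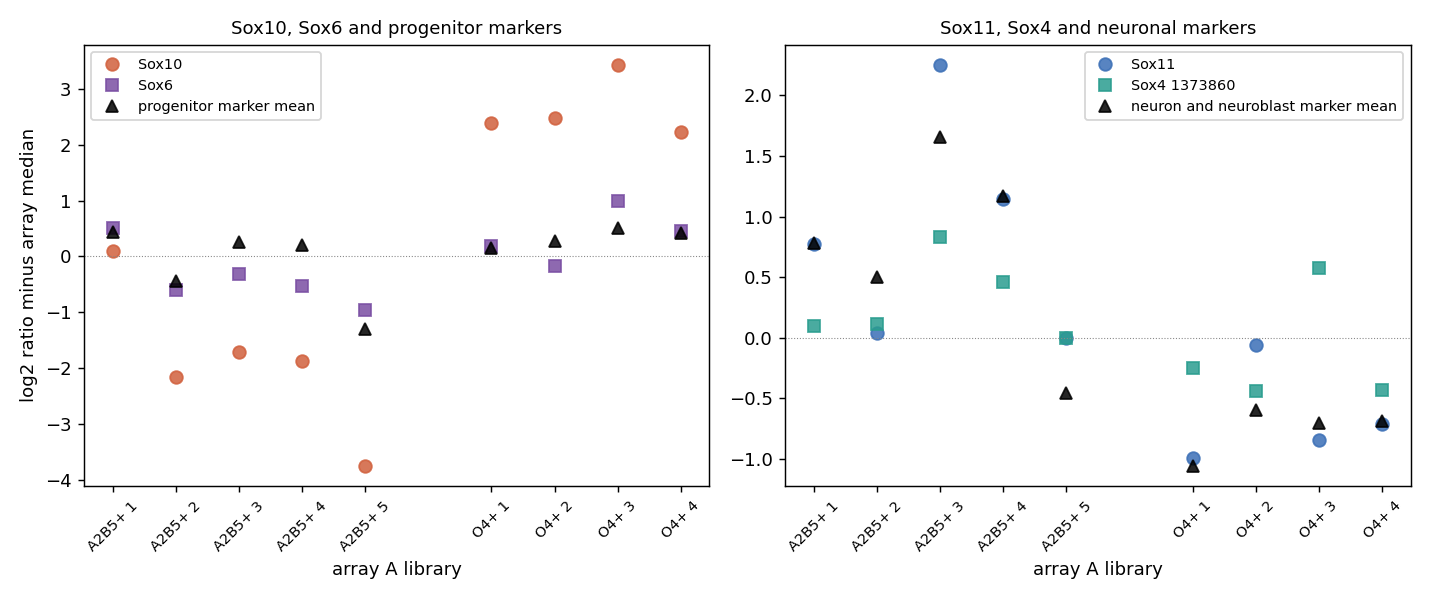
Log2 ratio minus the array's median on each array A library, for Sox10 and Sox6 beside the mean of the progenitor markers (left), and for Sox11 and the Sox4 probe set 1373860_at beside the mean of the neuron and neuroblast markers (right). Among A2B5+ libraries, Sox10, Sox6 and the progenitor marker mean share the order 1, 3, 4, 2, 5. Sox11 and the neuronal marker mean share the order 3, 4, 1, 2, 5, as does the astrocyte and radial glia marker mean, which is not drawn.

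Sox4, the other SoxC factor, was read by 7 probe sets, of which 6 were tested and 0 were called by limma (1 had an unadjusted p under 0.05, and 3 were called lower with array weights). All 6 differences were below 0. The probe set with the smallest adjusted p (1383137_at, array B) had ratios of 1.075, 1.169, 1.906, 1.595 and 1.00 in A2B5+ replicates 1 to 5 and 0.960, 0.967, 0.802 and 0.672 in O4+ replicates 1 to 4. The groups did not overlap, and the difference was -0.64 ± 0.21 with a 95% interval of -1.12 to -0.15 (limma, adjusted p = 0.0611). A2B5+ replicates 3 and 4 were the highest, as they were for Sox11.

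The other tested Sox4 probe sets did not all share a highest array, but 1373860_at (1.656) and 1384000_at (3.316) peaked in A2B5+ replicate 3, as Sox11 did. Those on array A gave -0.27 ± 0.25 (1373860_at; limma, adjusted p = 0.384), with O4+ replicate 3 at 1.61 against 0.788 to 0.878 in the other O4+ arrays, and -0.08 ± 0.27 (1375123_at; limma, adjusted p = 0.814), with O4+ replicate 2 the highest of all arrays at 1.63. On array B the probe set 1383989_at had the widest difference, -1.36 ± 0.61 (limma, adjusted p = 0.138). It was highest in A2B5+ replicate 5, at 3.75, where Sox11 was low. The remaining pair gave -0.38 ± 0.43 (1384000_at; limma, adjusted p = 0.532) and -0.11 ± 0.42 (1393571_at; limma, adjusted p = 0.857). The seventh (1375257_at, array A) was not tested, with ratios of 0.257 to 0.456. Both tested Sox4 probe sets of array A had overlapping groups. Over the Sox genes 2 of the 6 tested on array A and 1 of the 7 tested on array B had groups that did not overlap, a state shared by 44.0% and 25.6% of everything tested there.

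Of the 6 planned pairs of related Sox genes (3 within SoxE, Sox4 with Sox11, Sox5 with Sox6, and Sox2 with Sox9), 2 had both genes on 1 array type. Sox4 with Sox11 was measured on array A, where Sox4 had 3 probe sets, the untested 1375257_at included. Within each array, Sox4 minus Sox11 (mean log2 ratio over the gene's probe sets there) averaged -1.32 ± 0.82 (SD, n = 5) for A2B5+. For O4+ cells it averaged 0.01 ± 0.27 (SD, n = 4). Sox11 thus fell relative to the array A probe sets of Sox4 by 1.33 log2 units from A2B5+ to O4+ cells. The Sox4 differences there were -0.27 and -0.08, and 0.36 for the untested probe set in the fit without a filter. The pair value is therefore close in size to the difference of Sox11 alone (-1.32). The two-sided exact permutation test over 126 splits gave p = 0.024 (adjusted p = 0.048 over the 2 pairs measured). The tested Sox4 probe sets of array B, with differences of -1.36 to -0.11, did not enter this pair. Leaving out any 1 array gave 1.03 to 1.54, with adjusted exact p-values of 0.058 to 0.071. Without an A2B5+ array the 70 remaining splits allow no p under 0.029. Over 2 pairs, beside the other pair's value, no adjusted p under 0.05 can then arise, so the p-values of those runs say nothing about stability. Without an O4+ array the 56 remaining splits do allow an adjusted p under 0.05. Each of those runs gave p = 0.036 (exact permutation, adjusted p = 0.071), so there the call was lost. With only the tested Sox4 probe sets the difference was 1.15 (exact permutation p = 0.04), and with 0.1 added to each ratio it was 1.20 (adjusted exact p = 0.064). Sox2 minus Sox9 on array B differed by 0.58 (exact permutation test, p = 0.071, adjusted p = 0.071), and since the Sox9 probe set hardly varied, this value is close to that of Sox2 alone.

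The other Sox genes of the arrays gave 8 tested probe sets, 1 called higher and 4 called lower in O4+ cells, with a median difference of -0.649 against 0.118 over all tested probe sets of both array types. Over both types 22.1% of tested probe sets were called higher and 14.3% lower (14.7% and 16.1% with arrays centred). The SoxF factors of endothelial cells were lowest in O4+ cells, Sox18 with -3.85 ± 0.48 (limma, adjusted p = 0.000628), Sox17 with -3.58 ± 0.55 (limma, adjusted p = 0.00179) and Sox7 with -3.10 ± 0.39 (limma, adjusted p = 0.000676). Endothelial markers on array B averaged 0.07 to 0.19 in A2B5+ and -0.79 to -0.29 in O4+ arrays (centred log2). This mean came from 4 tested probe sets, of which only Tek (-2.27) was called, beside Pdgfrb (-0.45 and -0.01) and Kdr (0.06). The part of these markers in the SoxF differences was not tested. Sox3, a SoxB1 factor like Sox2, was lower (-1.38 ± 0.28, groups not overlapping; limma, adjusted p = 0.00302). Sox13, a SoxD factor like Sox6, was higher (0.89 ± 0.21; limma, adjusted p = 0.00696).

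**Figure D3:**
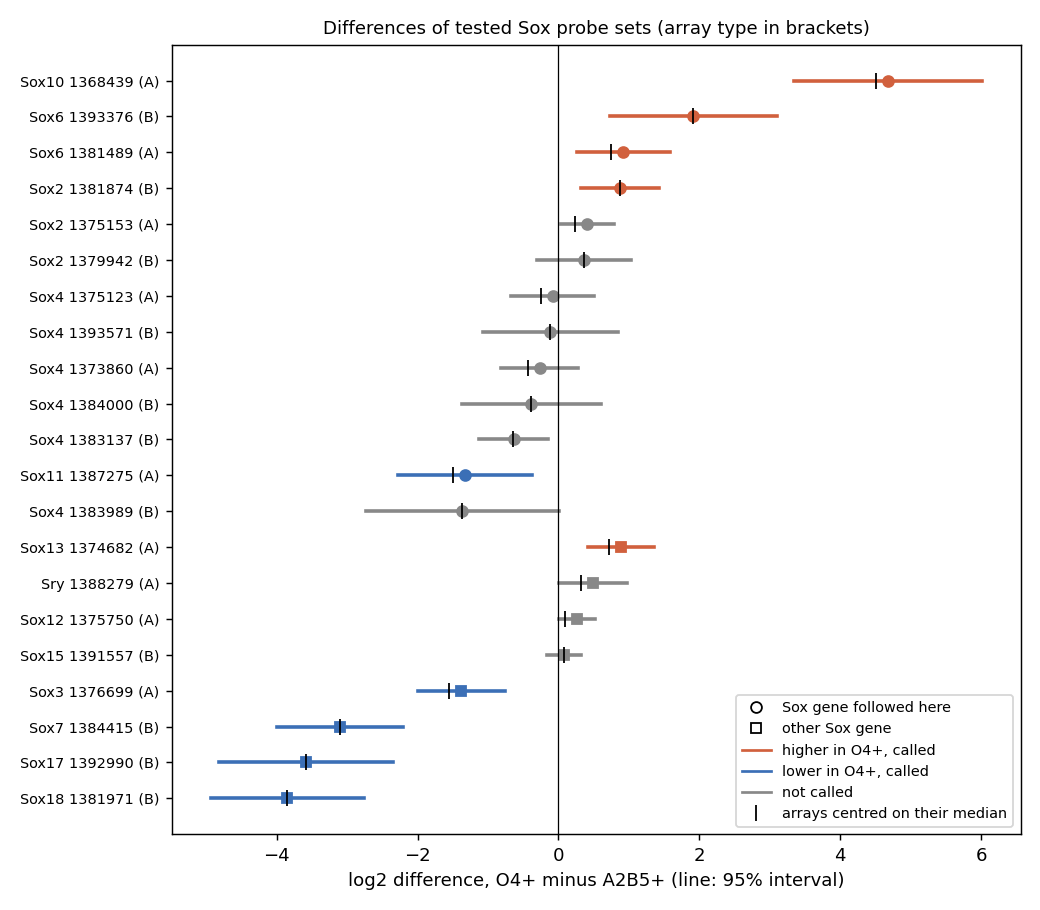
Log2 difference, O4+ minus A2B5+, of every tested probe set of the 6 Sox genes followed here and of the other Sox-family genes, Sry included. Lines give 95% intervals from limma. Sox9 had no tested probe set and is not drawn. Orange marks probe sets called higher, blue those called lower and grey those not called, and black ticks give the value with arrays centred. Sox10 lies furthest to the right at 4.68 and Sox18 furthest to the left at -3.85, and the 6 Sox4 probe sets lie below 0.

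Partners of the SoxE factors in the oligodendrocyte lineage gave 33 tested probe sets, 11 higher and 5 lower (9 and 5 with arrays centred), with a median of 0.419. Among the 11, Zfp536 passed the filter on the O4+ arrays only. The 4 with the widest rises were Nkx6-2 (4.77 ± 0.19), Myrf (3.84 ± 0.33), Pou3f1 (3.08 ± 0.42) and Tcf7l2 (2.99 ± 0.32), all transcription factors of oligodendrocyte differentiation. Nkx2-2 (2.69 ± 0.75) and Olig1 (1.50 ± 0.34) were higher as well. Those called lower included the inhibitor Id4 (-2.04) and the Notch effector Hes1 (-1.21), whereas the 2 tested probe sets of Hes5 were called in opposite directions (-1.32 and 0.42). With arrays centred the second Hes5 value was 0.25 and was no longer called (limma, adjusted p = 0.162). Olig2, which acts with Sox10, had no tested probe set.

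Genes described as Sox10 targets in myelinating glia gave 29 tested probe sets, of which 26 were higher and 2 lower in O4+ cells, with a median of 3.436. Without 1 probe set each of Cldn11 and Gjb1, which passed the filter on the O4+ arrays only, 24 of 27 were higher. The myelin genes Mobp (7.68), Mbp (6.21) and Mog (5.59) and the galactolipid enzyme Ugt8 (5.38) had the widest rises. The 2 lower ones were the progenitor receptor Pdgfra (-2.29 ± 0.60) and the proteoglycan gene Cspg4 (-0.95). Several of these genes are also in the list of mature oligodendrocyte markers.

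Partners of Sox2 and Sox9 in neural stem cells gave 23 tested probe sets, 1 higher and 13 lower (0 and 14 with arrays centred), with a median of -1.207. Lhx2 (-3.40), Pax6 (-3.26), Nes (-2.36) and Prom1 (-2.30) fell furthest, and the tested probe sets of Nfia and Nfib, nuclear factor I genes of gliogenesis, fell by 1.00 to 1.87 log2 units. The called Sox2 probe set moved against these genes. Neuronal genes linked to the SoxC factors gave 20 tested probe sets, 10 lower and 4 higher, with a median of -1.514. Dlx1 (-3.40), Cd24 (-3.33), Stmn2 (-2.82) and Igfbpl1 (-2.34) fell furthest, while Elavl3 (1.48), Prox1 (1.31) and Marcksl1 (0.78) were higher. Dcx, a marker of migrating neuroblasts, was not called by either tested probe set (-1.09 and 0.31). Cartilage and stem cell genes linked to the SoxD factors gave 9 tested probe sets, 5 higher and 0 lower (2 and 0 with arrays centred), with Col2a1 (3.00) and Col9a1 (1.58) the widest.

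**Figure D4:**
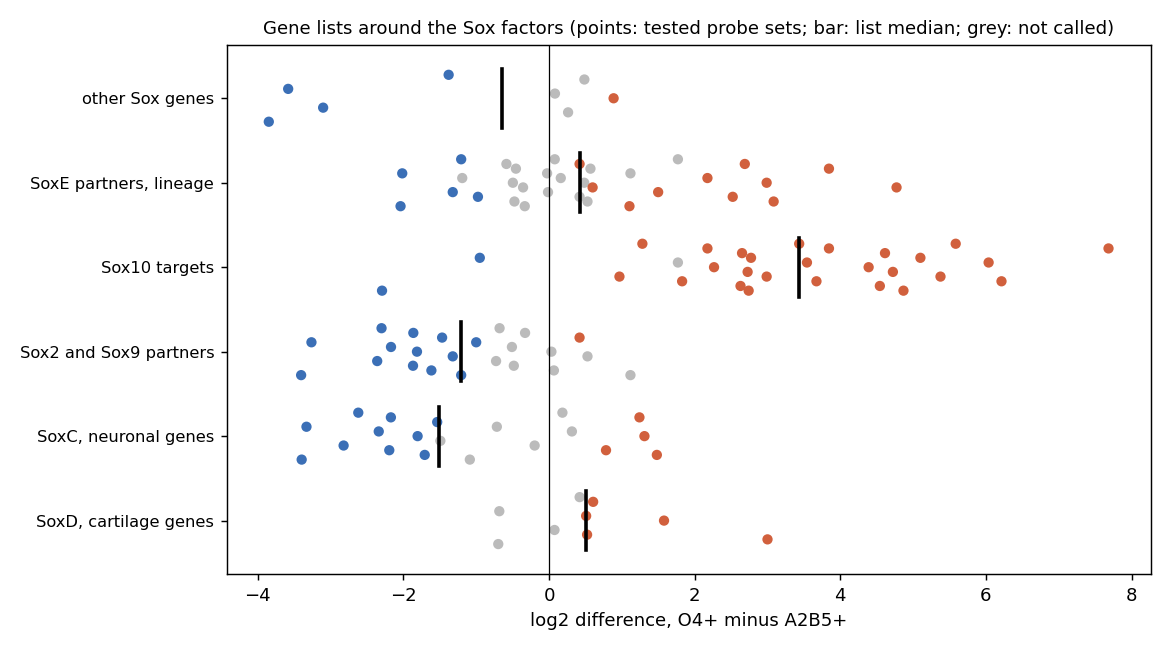
Log2 difference, O4+ minus A2B5+, of each tested probe set in the gene lists around the Sox factors, 1 point per probe set, coloured orange where called higher, blue where called lower and grey where not called. The Sox10 target points lie mostly between 1 and 8 with a median of 3.436, and the points of the Sox2 and Sox9 partners and of the SoxC-linked neuronal genes lie mostly below 0.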

How the data were processed

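Labelled RNA of 5 A2B5+ and 4 O4+ replicates was read on 2 array types. The submitters' processing notes name GCRMA, with no version, and the deposited values are linear ratios made by the authors, and how they were derived from intensities was not stated in any source used here. The ratios were log2 transformed with no pseudocount and fitted per array type with limma 3.58.1 (R 4.3.3, lmFit and eBayes, population as the only term), adjusted over all tested probe sets (13098 on array A, 11136 on array B). The number of arrays limits the precision. Only probe sets with 1 gene symbol were named (12789 of 15923 for array A, 7570 of 15333 for array B). The fit was tested on simulated data. Pairs of genes were tested over all splits of the arrays. Alternatives were centring, quantile normalization, other filters, array weights, an added 0.1, a replicate block and leaving out each array. All 8 Sox genes, from each list up to 4 called genes in each direction with some fixed names, and the 3 nearest profiles could be named. The members and lists were chosen with earlier results of these data known.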

Additional observations from a re-analysis of the deposited data

Results flagged for a closer look

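In 3 of 32 sets of Sox values (16 probe sets, each in A2B5+ and O4+ cells) 1 array lay far from the others of its population by Dixon's criterion, which chance meets in about 1 in 20 groups. For Sox4 probe set 1373860_at on array A, O4+ replicate 3 had a ratio of 1.61 and its nearest neighbour 0.878, a gap of 0.849 of the range. For the untested Sox4 probe set 1375257_at on array A, O4+ replicate 2 had 0.456 and its nearest neighbour 0.329, a gap of 0.93 of the range. For the untested Sox9 probe set 1386387_at on array B, A2B5+ replicate 4 had 0.300 and its nearest neighbour 0.303, a gap of 0.751 of the range.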

How the results depend on the processing

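The direction of every called Sox probe set held under each alternative run, and the Sox10 call held in all 16. Of the Sox probe sets called, array A gave 3, 5 with no filter on low values (the added calls were untested Sox2 and Sox4 probe sets with little variation) and 1 to 3 when 1 array was left out. With array weights array A gave 4, 2 higher and 2 lower. With centring, and with quantile normalization, it gave 2, 1 higher and 1 lower. Array B gave 2, both higher, 3 with array weights (1 higher and 2 lower, the Sox2 call lost and 2 Sox4 probe sets called lower), 1 with a replicate block and 0 to 2 when 1 array was left out. For Sox4 with Sox11 on array A, the difference of 1.33 became 1.20 with 0.1 added to each ratio (exact permutation, adjusted p = 0.064). It was 1.54 with a replicate block (exact permutation, adjusted p = 0.24), where 16 splits were possible and no p under 0.12 could arise. Leaving out 1 array gave 1.03 to 1.54, where the splits without an A2B5+ array could not give an adjusted p under 0.05. Without any 1 O4+ array, where they could, it was 0.071 (exact permutation). For Sox2 with Sox9 the difference of 0.58 became 0.84 with the probe set of largest SD (exact permutation, adjusted p = 0.048), and 0.44 to 0.70 when 1 array was left out. The cause was not tested. Same-numbered A2B5+ and O4+ arrays correlated in their deviations from the group means at 0.02 to 0.305 on array A and -0.198 to 0.237 on array B. The best-correlated O4+ array bore the same number for A2B5+ replicates 2, 3 and 4 on array A, and for replicate 1 only on array B. As the 2 array types differed in this, the numbers were not taken to pair the samples. With the replicate block over numbers 1 to 4, all-probe-set calls went from 6188 to 6232 on array A and from 2644 to 2196 on array B, and the Sox2 call on array B was lost (limma, adjusted p = 0.075). With 9 arrays a type, most Sox calls rest near the threshold, and probe sets with a median ratio under 1 mostly vary too little to be compared.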
